A study of Macaca fascicularis with 64 samples.

Results

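The sirtuins SIRT1, SIRT2, SIRT3, SIRT4, SIRT5, SIRT6 and SIRT7 were followed in single islet cells of young and old cynomolgus monkeys. The genes were taken by symbol from tables that list 21041 macaque genes, and all 7 were found. Sirtuins are enzymes that remove acetyl or longer acyl groups from lysines and consume NAD in each reaction, so that their activity depends on the NAD supply of the cell. SIRT1, SIRT6 and SIRT7 act mainly in the nucleus, SIRT2 mainly in the cytosol, and SIRT3, SIRT4 and SIRT5 in mitochondria. In islets the family is known above all for SIRT1, which supports glucose-stimulated insulin secretion, and for SIRT4, which restrains amino acid-stimulated insulin secretion.

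Islets were isolated from the pancreas tail of 16 healthy monkeys, of which 8 were young and 8 old, and each age had 4 females and 4 males. Single live cells were picked by mouth pipette and sequenced in 64 libraries, 4 per monkey, by a tag-based protocol that reads 1 end of each cDNA and marks each molecule with a unique molecular identifier (UMI). Every monkey was processed on a day of its own, and so the day and the monkey cannot be told apart. Levels are given as UMIs per 1000000 UMIs on macaque genes (CPM), taken from the summed counts of a type's cells in a monkey. A UMI was taken to stand for a molecule whatever the length of its transcript. CPM were therefore compared between genes without correction for length. Differences between genes in capture or annotation were not corrected for either.

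Of 6141 deposited cells, 5908 passed the limits of more than 800 genes and 10000 UMIs (2957 young, 2951 old), and a monkey had 21982838 to 35850398 UMIs in them, spike-ins included. The highest of the hormone genes GCG, INS, SST and PPY set the cell type, which gave 4503 α-cells, 1219 β-cells, 112 δ-cells and 74 PP-cells. Defining markers beyond the hormones followed the types: IRX2 was at 473 CPM in α-cells, SLC2A2 at 688 CPM in β-cells, HHEX at 386 CPM in δ-cells and SLITRK6 at 50.4 CPM in PP-cells, each higher than in the other types. Another type's hormone was also counted in every type, as with 6836 CPM of INS in α-cells, and in 244 cells (4.13%) the highest hormone was less than 2 times the second. Monkeys entered a comparison with at least 5 cells of the type, which kept 16 for α-cells and 16 for β-cells, 7 young and 4 old for δ-cells, and 2 young (both male) and 4 old for PP-cells. A β-cell sum held as few as 622124 UMIs (11 cells of young female 2), and the δ- and PP-cell sums held 206257 to 1498899 UMIs.

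In α-cells, all 7 sirtuins were detected in every monkey at low levels. SIRT2, a cytosolic deacetylase known for acting on tubulin, was the highest, at 29.8 ± 6.43 CPM (SD, n = 16 monkeys). SIRT1, the nuclear deacetylase of p53, FOXO factors and PGC-1α, followed at 21.4 ± 5.96 CPM. The other nuclear members were lower, with 12.4 ± 3.94 CPM for SIRT7, which deacetylates histone H3 and is linked to ribosomal RNA synthesis, and 9.17 ± 2.95 CPM for SIRT6, a chromatin deacetylase of DNA repair and glycolytic gene control. Of the mitochondrial members, SIRT3, the main mitochondrial deacetylase, was at 10.8 ± 2.36 CPM, SIRT4 at 8.85 ± 5.98 CPM, and SIRT5, which removes succinyl and malonyl groups, was the lowest at 4.93 ± 1.5 CPM. Each gene was compared with its neighbour in this order by an exact two-sided sign-flip permutation test of log2(CPM + 1) over the 16 monkeys, with adjustment over the 6 pairs. SIRT2 was above SIRT1 in 14 of 16 monkeys (adjusted p = 0.00128, exact permutation) and SIRT1 above SIRT7 in 16 of 16 (adjusted p = 0.00018, exact permutation). SIRT3 was above SIRT6 in 11 of 16 (adjusted p = 0.0404, exact permutation) and SIRT4 above SIRT5 in 14 of 16 (adjusted p = 0.00653, exact permutation). SIRT7 and SIRT3 were not separated beyond their spread (adjusted p = 0.229, exact permutation), nor were SIRT6 and SIRT4 (adjusted p = 0.510, exact permutation). SIRT2 was the highest sirtuin in 13 of 16 monkeys, SIRT1 in 2 and SIRT4 in 1.

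The order of the means was the same in β-cells, with wider spread. SIRT2 was at 25.0 ± 9.43 CPM, SIRT1 at 17.4 ± 12.6 CPM, SIRT7 at 13.2 ± 7.83 CPM, SIRT3 at 7.19 ± 4.44 CPM, SIRT6 at 6.14 ± 2.56 CPM, SIRT4 at 5.75 ± 3.82 CPM and SIRT5 at 4.6 ± 3.38 CPM (SD, n = 16 monkeys each). Of the 6 neighbouring pairs, only SIRT7 and SIRT3 differed (adjusted p = 0.0447, exact permutation, SIRT7 higher in 12 of 16 monkeys). SIRT2 against SIRT1 had an adjusted p of 0.0783 (exact permutation, SIRT2 higher in 13 of 16). The β-cells of old male 4 held 0 SIRT4 UMIs, which allows up to 1.82 CPM, and those of young female 2 held 0 SIRT5 UMIs, which allows up to 4.82 CPM. These limits take 3 counts as the most that a count of 0 allows in a sum, and they cover counting error only.

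In δ- and PP-cells the sums rested on few cells, and many were empty for the lower sirtuins. Of 77 values in δ-cells (7 genes in 11 monkeys), 25 were at 0, and of 42 values in PP-cells (7 genes in 6 monkeys), 14 were at 0. A count of 0 allowed up to 4.25 to 14.5 CPM in these δ-cell sums and up to 2.0 to 14.4 CPM in the PP-cell sums. The median monkey had 33.0 CPM of SIRT2 and 12.3 CPM of SIRT1 in δ-cells, and 7.78 CPM of SIRT2 and 11.4 CPM of SIRT1 in PP-cells. SIRT5 had only 9 UMIs in 3 of 112 δ-cells and 27 UMIs in 4 of 74 PP-cells.

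**Figure D1:**
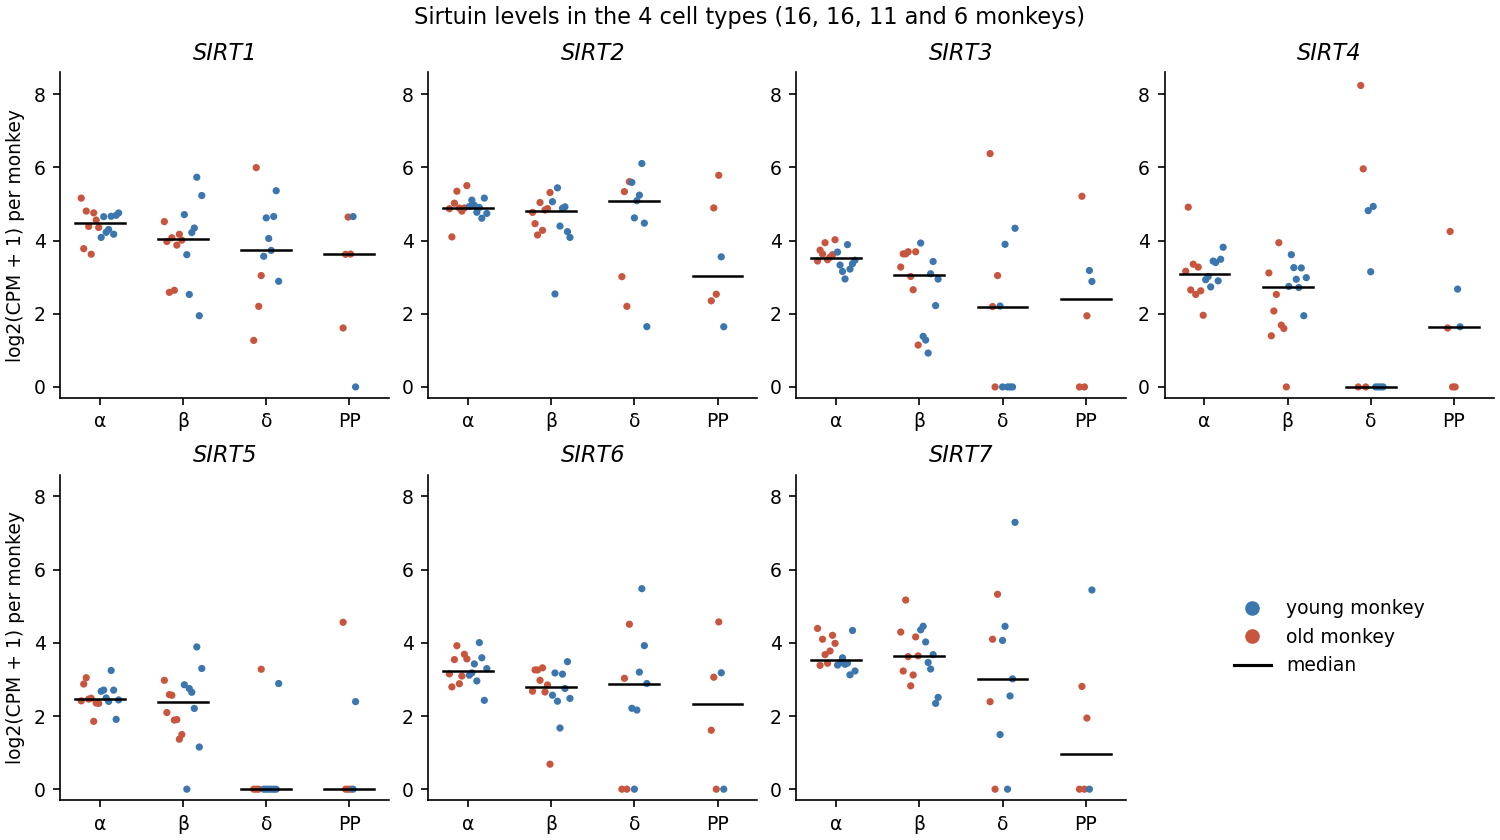
Level of each sirtuin in the 4 cell types, as log2(CPM + 1) with 1 point per monkey (blue young, red old) and a bar at the median over 16, 16, 11 and 6 monkeys for α-, β-, δ- and PP-cells. Points are tight in α-cells and spread from 0 to over 8 in the small δ-cell sums, where 25 of 77 values lie at 0.

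The types were set by hormone genes alone, so sirtuin counts could be compared between types within monkeys. The sums of all types were tested in 1 edgeR quasi-likelihood fit with the monkey as a block and Benjamini-Hochberg adjustment over 12899 genes. None of the 7 sirtuins passed an adjusted p of 0.05 in any of the 6 contrasts by edgeR or by DESeq2. The share of all genes called was 25.0% for β-cells minus α-cells, 23.2% for δ-cells minus α-cells, 6.61% for PP-cells minus α-cells, 19.8% for δ-cells minus β-cells, 17.2% for PP-cells minus β-cells and 10.3% for PP-cells minus δ-cells. At an unadjusted p under 0.05, edgeR gave 0 sirtuins between β- and α-cells (34.5% of genes), δ- and β-cells (32.5%) and PP- and β-cells (30.7%), and 1 each between δ- and α-cells (35.4%), PP- and α-cells (22.4%) and PP- and δ-cells (25.5%).

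Between β- and α-cells, 6 of 7 sirtuins had a log2 fold change below 0, where the median of all genes tested was −0.11. The largest was that of SIRT3, −0.87 (SE 0.49, edgeR adjusted p = 0.210), from 7.19 CPM in β-cells and 10.8 CPM in α-cells. Its call depended on which sums were fitted. With at least 20 cells per monkey and type the value was −0.73 (edgeR adjusted p = 0.0341, 46.7% of genes called), and with only the α- and β-cell sums, a setting chosen after the data were seen, it was −0.79 (edgeR adjusted p = 0.0240, 46.9% of genes called). SIRT4 was at −0.61 (SE 0.50), SIRT1 at −0.55 (SE 0.38), SIRT6 at −0.55 (SE 0.42), SIRT2 at −0.32 (SE 0.31) and SIRT5 at −0.30 (SE 0.51). SIRT7 was at 0.085 (SE 0.43, 95% interval −0.79 to 0.96), and its sign turned in 4 of the other settings.

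Among the small types, 3 sirtuins came nearest to a call. SIRT5 had a log2 fold change of −1.98 in δ-cells against α-cells (SE 0.84, edgeR adjusted p = 0.0798) and of −1.68 against β-cells (SE 0.85, edgeR adjusted p = 0.165). Its 9 δ-cell UMIs came from old male 4 and young male 3. Without old male 4 the values were −3.27 (edgeR adjusted p = 0.0123) and −2.99 (edgeR adjusted p = 0.0254), and without young male 3 they were −2.80 (edgeR adjusted p = 0.0218) and −2.51 (edgeR adjusted p = 0.0498), so that leaving out either monkey turned both into calls, beside 21.8% and 18.5% of genes without old male 4 and 22.1% and 18.1% without young male 3. SIRT4 in δ-cells minus β-cells was at 1.05 (SE 0.70, edgeR adjusted p = 0.306), and it passed with cells thinned to 10000 UMIs (1.84, edgeR adjusted p = 0.0321) and with no monkey block (2.17, edgeR adjusted p = 0.0124), beside 20.6% and 21% of genes. The same gene in PP-cells minus δ-cells was at −2.33 (SE 1.04, edgeR adjusted p = 0.144), and SIRT2 in PP-cells minus α-cells was at −1.09 (SE 0.53, edgeR adjusted p = 0.207). These SIRT4 values rest on few cells, since a single δ-cell of old female 2 held 119 of the 239 SIRT4 UMIs of all 112 δ-cells (49.8%).

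Within a type, sirtuin molecules were seen in a minority of cells. Of the 4503 α-cells, 43.9% held at least 1 UMI of SIRT2 (95% exact binomial interval 42.5% to 45.4%), 31.9% of SIRT1 (30.5% to 33.3%), 20.1% of SIRT6, 18.5% of SIRT3, 17.1% of SIRT7, 12.3% of SIRT4 and 9.97% of SIRT5. SIRT6 was thus found in more α-cells than SIRT3 and SIRT7 although its summed level was lower, and its positive cells held 3.26 UMIs on average against 4.12 and 5.18. The binomial intervals treat pooled cells as independent and do not cover the spread between monkeys. By monkey, the α-cell share ran from 28.7% (old female 2) to 55.6% (old female 4) for SIRT2. For SIRT1 it ran from 17.8% (old male 1) to 44.3% (young male 1). The shares in β-cells were 42.9% for SIRT2, 35.4% for SIRT1, 19.9% for SIRT7, 18.6% for SIRT3, 17.8% for SIRT6, 11.2% for SIRT5 and 10.7% for SIRT4. The median depth was 68716 UMIs in α-cells and 78172 in β-cells. After thinning to 10000 UMIs on macaque genes, SIRT2 was left in 17.6% of 4464 α-cells and 16.3% of 1213 β-cells, and SIRT5 in 3.14% and 3.05%.

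Detection followed the level, as it did for other genes. By level in α-cells the sirtuins ranked from 4745 (SIRT2) to 9706 (SIRT5) among 18715 genes with at least 1 UMI. Over the 4963 genes with levels between those of SIRT5 and SIRT2, the median gene was found in 19.9% of α-cells with 5.05 UMIs per positive cell, and the 45 cells with the most UMIs of a gene (1% of cells) held 29.9% of its UMIs. That share was 16.8% for SIRT2, 22.2% for SIRT6, 24.3% for SIRT1, 27.4% for SIRT3, 32.2% for SIRT7, 38.5% for SIRT5 and 46.4% for SIRT4. SIRT4 was the most concentrated of the family: 1 α-cell of old female 2 held 256 of the 451 SIRT4 UMIs of that monkey's 251 α-cells.

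**Figure D2:**
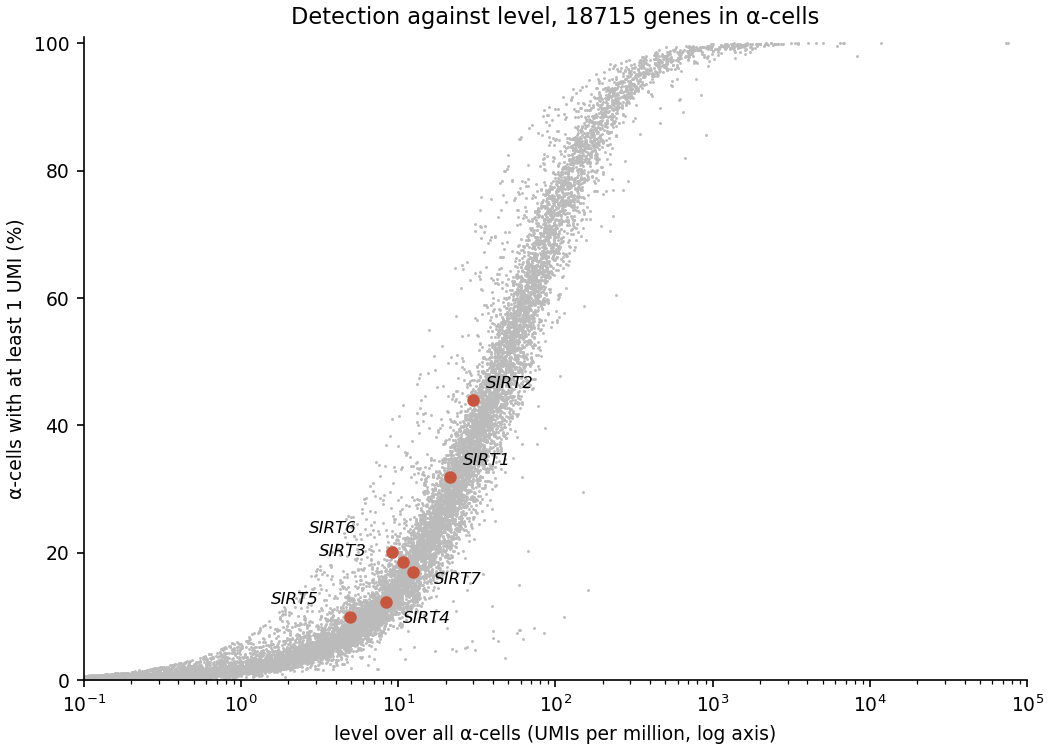
Percentage of the 4503 α-cells with at least 1 UMI against the level over all α-cells (CPM, log axis) for 18715 genes, with the sirtuins in red. The sirtuins lie along the band of all genes, from SIRT5 at 9.97% of cells to SIRT2 at 43.9%.

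A single α-cell held UMIs of 1.54 sirtuins on average, 19.4% of α-cells held none and 19.4% held 3 or more. At most 6 sirtuins were found together, in 10 α-cells. In β-cells the mean was 1.57 sirtuins and 18.5% held none. After thinning to 10000 UMIs these means were 0.57 and 0.53, and 55.1% of α-cells and 58.3% of β-cells held none.

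The age comparison asks whether islet cells of old monkeys carry more or less sirtuin mRNA. The summed counts of each type were tested with edgeR's quasi-likelihood test with age and sex in the model, over all genes that passed its filter on low counts. In α-cells, 0 of 7 sirtuins were called at an adjusted p of 0.05, beside 0% of 12916 genes, and 0 of 7 had an unadjusted p under 0.05, beside 6.86% of genes. In β-cells, 0 of 7 were called, beside 0.0470% of 10628 genes (5 genes), and again 0 of 7 had an unadjusted p under 0.05, beside 5.54% of genes. DESeq2 called 24 genes in α-cells and 39 in β-cells, none of them a sirtuin. The young and old ranges overlapped for every sirtuin in each of the 4 types. Overlap was not counted over all genes, so it is given as a description and not as a trait of the sirtuins.

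Among the nuclear sirtuins, SIRT7 had the largest age difference in α-cells. Young monkeys ranged from 7.72 to 19.2 CPM with a median of 9.78, and old monkeys from 9.43 to 20.02 CPM with a median of 13.8. In all, 7 of the 8 old monkeys lay above the young median, the log2 fold change was 0.36 (SE 0.21, 95% interval −0.083 to 0.81) and the edgeR adjusted p was 0.781. The highest young value belonged to young male 3, whose α-cells also carried 1873 CPM of 5 immune marker genes, against at most 260 CPM in the other young monkeys. Over all α-cells CD74 was the highest of the 5 at 149 CPM, and PTPRC was at 1.72 CPM. Without that monkey the log2 fold change was 0.55, and the part of these transcripts in the SIRT7 value was not tested. In β-cells SIRT7 ranged from 4.08 to 20.9 CPM in young (median 10.9) and from 6.09 to 35.0 CPM in old monkeys (median 11.4), with a log2 fold change of 0.31 (SE 0.39, edgeR adjusted p = 0.999).

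SIRT1 was level with age in α-cells, from 15.98 to 26.0 CPM in young (median 21.5) and from 11.4 to 34.8 CPM in old monkeys (median 21.3). Its log2 fold change was 0.018 (SE 0.21, 95% interval −0.42 to 0.45, edgeR adjusted p = 0.993), and the old monkeys lay on both sides of the young range. In β-cells SIRT1 ran from 2.85 to 52.1 CPM in young (median 18.5) and from 5.0 to 21.9 CPM in old monkeys (median 14.9). Here 7 of 8 old monkeys were below the young median, and the log2 fold change of −0.61 (SE 0.46, edgeR adjusted p = 0.992) was −0.33 without young male 2, the highest of all. SIRT6 ranged from 4.38 to 15.1 CPM (median 8.43) in young and from 5.94 to 14.2 CPM (median 9.26) in old α-cells, with a log2 fold change of 0.046 (SE 0.26, edgeR adjusted p = 0.984). In β-cells SIRT6 went from 2.19 to 10.2 CPM (median 5.33) in young and from 0.605 to 8.96 CPM (median 6.53) in old monkeys, a log2 fold change of 0.11 (SE 0.51, edgeR adjusted p = 0.999). In β-cells, 6 of 8 old monkeys lay above the young SIRT6 median, and the ranges of both genes overlapped between ages in both types.

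Cytosolic SIRT2 had the narrowest interval of the family. Its α-cell levels were 23.4 to 34.8 CPM (median 29.2) in young and 16.1 to 44.3 CPM (median 28.7) in old monkeys, with a log2 fold change of 0.042 (SE 0.16, 95% interval −0.30 to 0.39, edgeR adjusted p = 0.971). The old group thus spread beyond the young group on both sides. In β-cells the ranges were 4.82 to 42.4 CPM (median 24.3) and 16.8 to 38.7 CPM (median 26.9), with a log2 fold change of 0.079 (SE 0.32, edgeR adjusted p = 0.999).

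**Figure D3:**
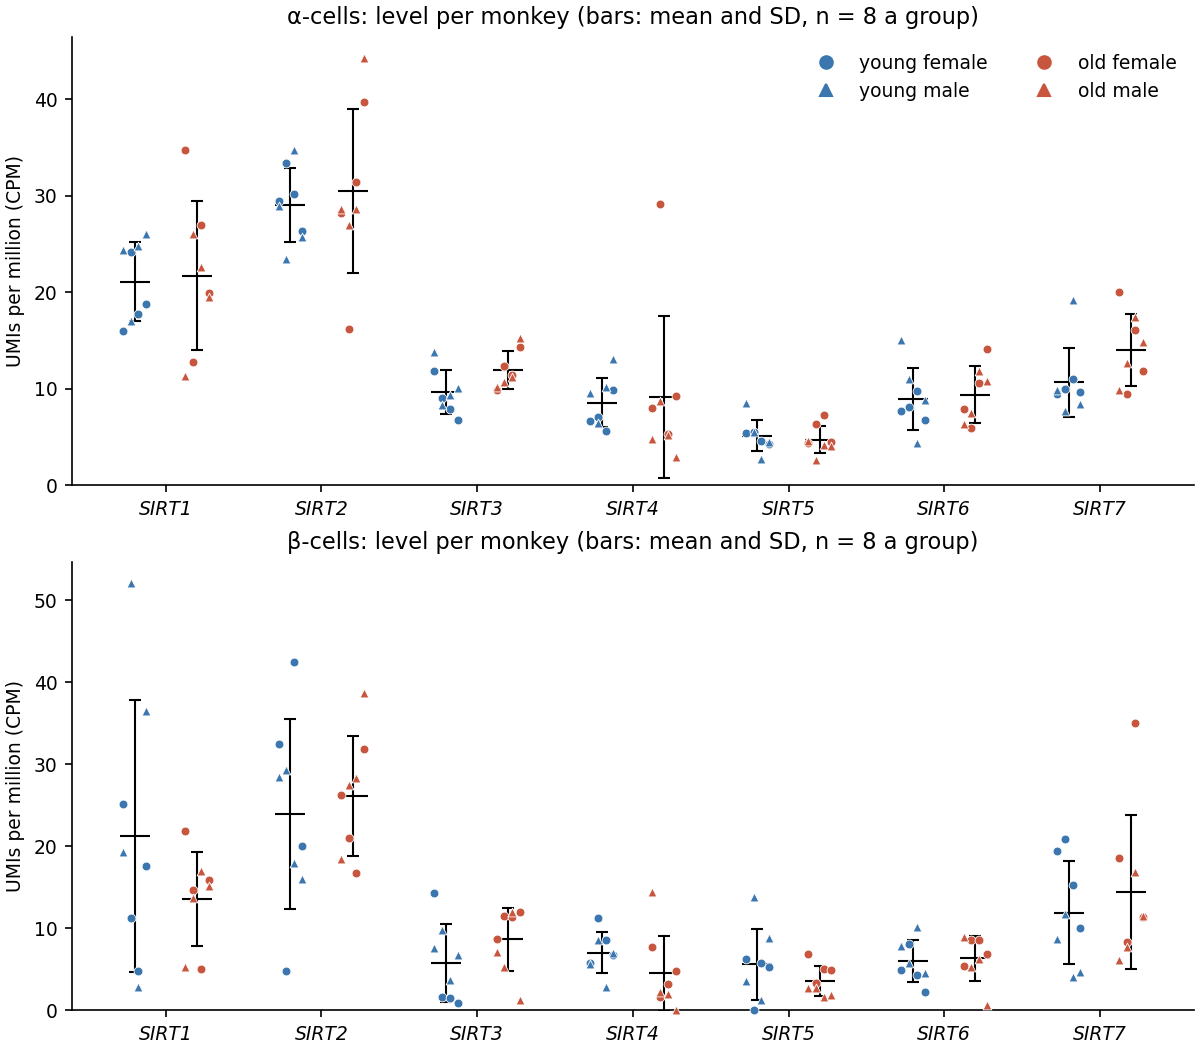
Levels of the 7 sirtuins (CPM) in α-cells and β-cells, with 1 point per monkey, blue for young and red for old, circles for females and triangles for males, and bars at the mean and SD of 8 monkeys. Young and old points overlap for every gene, including SIRT3 and SIRT7, whose old means in α-cells (11.9 and 14.03 CPM) lie above the young means (9.64 and 10.7 CPM).

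Of the mitochondrial sirtuins, SIRT3 in α-cells ranged from 6.73 to 13.8 CPM (median 9.19) in young and from 9.87 to 15.3 CPM (median 11.3) in old monkeys. All 8 old monkeys lay above the young median and 2 above the highest young monkey, while the log2 fold change of 0.29 (SE 0.19, 95% interval −0.097 to 0.68) had an edgeR adjusted p of 0.807. In β-cells SIRT3 ranged from 0.90 to 14.3 CPM (median 5.19) in young and from 1.21 to 11.95 CPM (median 10.1) in old monkeys, 7 of 8 old monkeys lay above the young median, and the log2 fold change was 0.53 (SE 0.57, edgeR adjusted p = 0.999).

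SIRT4, a mitochondrial regulator of glutamate metabolism, ranged from 5.65 to 13.1 CPM (median 8.33) in young and from 2.89 to 29.1 CPM (median 6.62) in old α-cells. The log2 fold change was −0.0078 (SE 0.39, edgeR adjusted p = 0.998) and −0.46 without old female 2, the highest monkey. In β-cells it went from 2.85 to 11.3 CPM (median 6.81) in young to between 0 and 14.4 CPM (median 2.72) in old monkeys, a log2 fold change of −0.59 (SE 0.60, edgeR adjusted p = 0.999). In each of the 2 types, 4 of the 8 old monkeys were below the lowest young monkey and 1 was above the highest. SIRT5 ranged from 2.75 to 8.47 CPM (median 5.01) in young and from 2.61 to 7.26 CPM (median 4.42) in old α-cells, a log2 fold change of −0.16 (SE 0.29, edgeR adjusted p = 0.936). In β-cells the SIRT5 ranges were 0 to 13.8 CPM (median 5.50) and 1.58 to 6.86 CPM (median 3.0), with a log2 fold change of −0.75 (SE 0.59, edgeR adjusted p = 0.992).

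**Figure D4:**
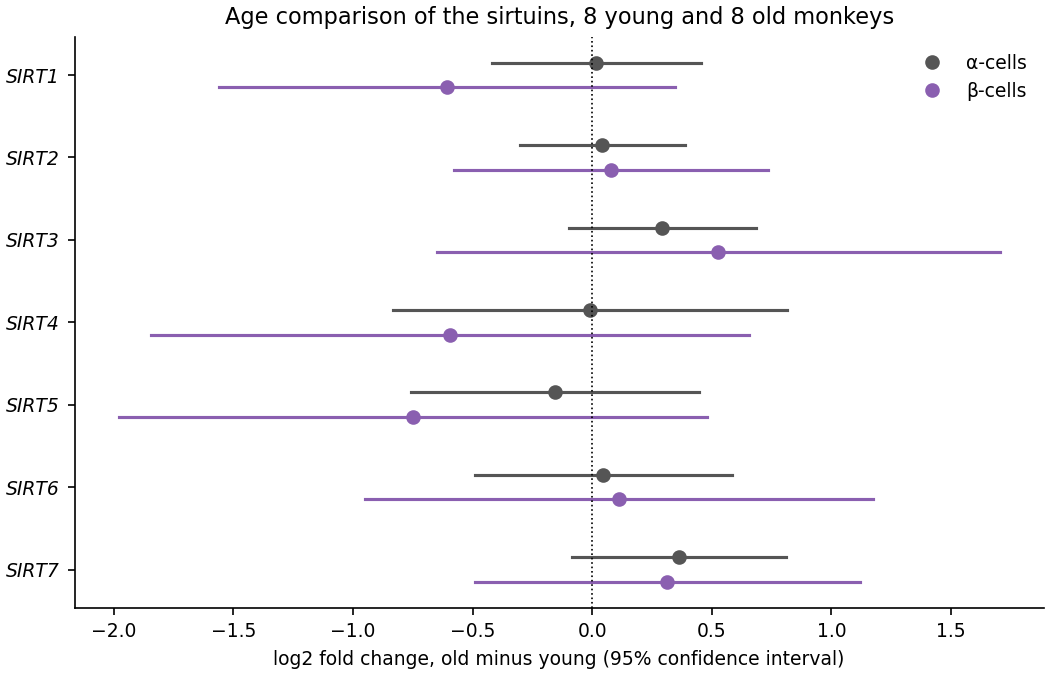
Log2 fold change of each sirtuin, old minus young, with its 95% confidence interval from edgeR, in α-cells (grey) and β-cells (purple) of 8 young and 8 old monkeys. All 14 intervals cross 0, the α-cell values lie between −0.16 (SIRT5) and 0.36 (SIRT7), and the β-cell intervals are wider.

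The age differences were also compared between β- and α-cells of the same monkeys. The interaction called 0 of 7 sirtuins, beside 0% of 12137 genes, with 0 of 7 at an unadjusted p under 0.05 beside 6.29% of genes, and DESeq2 called 0 sirtuins. Its values ran from −0.84 (SE 0.69) for SIRT4 to 0.54 (SE 0.57) for SIRT3 on the log2 scale. The opposite signs of SIRT1 in the 2 types (0.018 and −0.61) were set against each other in the joint fit, which gave −0.38 (SE 0.51, edgeR adjusted p = 0.969).

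The sum of 5 genes taken as ductal markers moved with age beside these values. In β-cells it was 66.1 to 1428 CPM in young (median 185) and 383 to 5302 CPM in old monkeys (median 1708). It was carried by SPP1 (1470 CPM over all β-cells), with KRT19 at 1.99 CPM and CFTR at 0. SPP1 was found in 77.4% of β-cells, so the sum cannot tell ductal transcripts from those of β-cells. The paper lists SPP1 among the genes raised in aged α-cells and β-cells. In α-cells the sums were 23.5 to 115 CPM and 63.4 to 330 CPM. The median depth per β-cell was 68396 UMIs in young and 84922 in old monkeys, and per α-cell 69117 and 68282. The part of these differences in the sirtuin values was not tested. The α-cells of young female 2 held 1647 CPM of 4 acinar marker genes, against at most 66.1 CPM in the other young monkeys. The part of these transcripts in that monkey's sirtuin values was not tested.

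For δ-cells, 3 sirtuins passed the filter on low counts and 0 were called, beside 0% of 6484 genes (3.22% at an unadjusted p under 0.05). Of the 3, SIRT4 alone was under 0.05 before adjustment, and DESeq2 called 0 sirtuins. SIRT4 was at 0 in 4 of 7 young monkeys, and its highest young value was 29.5 CPM. The old monkeys had 0 (old female 1), 301 (old female 2), 61.2 (old male 2) and 0 CPM (old male 4). The groups overlapped at 0, and the log2 fold change of 3.97 (SE 1.37, edgeR adjusted p = 0.9997) rested on 2 monkeys, old female 2 with 168 UMIs and old male 2 with 17. SIRT1 in δ-cells ranged from 6.40 to 40.2 CPM in young monkeys (median 15.6), and the old monkeys had 1.42, 62.7, 3.60 and 7.25 CPM, a log2 fold change of −0.23 (SE 1.31) that was −2.47 without old female 2. SIRT2 ranged from 2.13 to 67.9 CPM in young monkeys (median 33.0), and the old monkeys had 7.08, 39.4, 3.60 and 47.8 CPM, a log2 fold change of −0.43 (SE 1.12).

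For PP-cells, 2 sirtuins were tested and 0 called, beside 0% of 6568 genes (6.0% at an unadjusted p under 0.05, 0 of them sirtuins), and DESeq2 called 0 sirtuins. SIRT1 was at 24.2 and 0 CPM in the 2 young males and at 2.06, 11.3, 24.0 and 11.4 CPM in old female 1, old female 2, old male 2 and old male 4. SIRT2 was at 10.8 and 2.13 CPM in the young males and at 4.11, 28.7, 4.79 and 54.1 CPM in the same old monkeys. Old and young values overlapped for both, with log2 fold changes of 0.65 (SE 2.37) and 2.28 (SE 2.18). An exact permutation test with 2 against 4 monkeys cannot go below p = 0.0667.

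The share of cells with a UMI was compared between ages after thinning every cell to 10000 UMIs, in 28 exact two-sided permutation tests over monkeys. None of the 28 passed after adjustment, and 1 had an unadjusted p under 0.05. In each set of 28 given here, the PP-cell tests compared 2 with 4 monkeys. Their exact permutation p cannot go below 0.0667, so they could not count as under 0.05 and say nothing about a change in PP-cells. SIRT7 was found in 5.53 ± 1.34% of thinned α-cells in young and 7.40 ± 1.80% in old monkeys (SD, n = 8 each, unadjusted exact permutation p = 0.0365). Without thinning the shares were 15.4 ± 3.30% and 18.6 ± 3.50%, and none of the 28 unthinned tests had an unadjusted p under 0.05. On the scale of the mean log2(CPM/10 + 1) per cell, SIRT7 in α-cells went from 0.358 ± 0.0602 in young to 0.451 ± 0.0833 in old monkeys (unadjusted exact permutation p = 0.0253), the only value of 28 under 0.05, and none of the 28 passed after adjustment.

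Sex was compared in the same models. In α-cells 0 of 7 sirtuins were called for males minus females by edgeR, beside 0% of 12916 genes, and 0 were under 0.05 before adjustment, beside 5.83% of genes. In β-cells 0 of 7 were called, beside 0% of 10628 genes, and SIRT7 alone was under 0.05 before adjustment, beside 3.99% of genes. DESeq2 called 0 sirtuins in either type. SIRT7 in β-cells was at 8.38 to 35.0 CPM in females (median 16.9) and at 4.08 to 16.9 CPM in males (median 8.22), which overlapped, with a log2 fold change of −0.98 (SE 0.39, edgeR adjusted p = 1.00). The same contrast in α-cells was 0.012 (SE 0.21).

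The age difference was also compared between the sexes. The interaction called 0 of 7 sirtuins in α-cells by edgeR, beside 0.00774% of 12916 genes (1 gene), and 0 of 7 in β-cells, beside 0% of 10628 genes, and DESeq2 called 0 sirtuins in either type. At an unadjusted p under 0.05 it held 1 sirtuin in α-cells (5.40% of genes) and 0 in β-cells (4.08% of genes). That sirtuin was SIRT4 in α-cells. Young females had 6.62, 7.09, 5.65 and 9.85 CPM, and old females 7.95, 29.1, 5.28 and 9.23 CPM. Young males had 9.56, 6.46, 10.2 and 13.1 CPM, and old males 4.76, 8.68, 5.18 and 2.89 CPM. Males overlapped between ages, as did females. The interaction was −1.64 (SE 0.69, edgeR adjusted p = 0.908) and −0.80 without old female 2.

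The 4 libraries of a monkey, which hold different cells, gave the spread of a level within a monkey in α-cells. The SD of a sirtuin between monkeys ran from 1.5 CPM (SIRT5) to 6.43 CPM (SIRT2), and the standard error of a monkey's level from its 4 libraries ran from 1.60 CPM (SIRT5) to 6.54 CPM (SIRT4). For SIRT3, SIRT4, SIRT5 and SIRT7 that standard error was at least as large as the SD between monkeys.

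Across the 32 α- and β-cell sums of the 16 monkeys, the sirtuins varied largely apart from each other. The highest Pearson correlation of log2(CPM + 1) among the 21 pairs was 0.62, between SIRT3 and SIRT6, and the lowest was −0.27, between SIRT2 and SIRT4. Over 8106 genes (8107 for SIRT3) with a mean of at least 10 CPM, the genes most like SIRT2 were KIAA1551 (0.82), ATG2A (0.81) and RNF25 (0.80), and those most like SIRT1 were MBTD1 (0.79), KIAA2026 (0.77) and UNC119B (0.75). For SIRT3 they were SLC35D2 (0.76), STC2 (0.75) and RAI1 (0.74), and for SIRT7 SGSM2 (0.75), DDX56 (0.74) and AKAP1 (0.70). The points share monkeys and differ in depth, and the correlations are given as a description.

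Genes around the sirtuins were read in 6 lists, which cover NAD synthesis and supply, NAD use and nicotinamide clearance, regulators of SIRT1, nuclear and cytosolic sirtuin targets, mitochondrial sirtuin targets, and the zinc-dependent histone deacetylases, which act without NAD. They hold 95 genes, of which 86 were found by symbol. By age, 0 of 70 tested genes were called in α-cells, 0 of 61 in β-cells, 0 of 38 in δ-cells and 0 of 42 in PP-cells by edgeR, beside 0%, 0.0470%, 0% and 0% of all genes. At an unadjusted p under 0.05 there were 3, 2, 0 and 0 of them, beside 6.86%, 5.54%, 3.22% and 6.0% of all genes. The medians of the lists in α-cells lay between −0.11 (NAD use) and 0.18 (nuclear and cytosolic targets), beside −0.0023 over all genes. The smallest unadjusted p in α-cells was that of PARP3, an NAD-consuming poly(ADP-ribose) polymerase family member, at a log2 fold change of 0.59 (SE 0.20, edgeR adjusted p = 0.695). In β-cells it was that of BRCA1, counted here among the regulators of SIRT1, at −1.69 (SE 0.60, edgeR adjusted p = 0.754). NAMPT, the rate-limiting enzyme of NAD salvage, was at −0.013 (SE 0.17) in α-cells and −0.44 (SE 0.26, edgeR adjusted p = 0.958) in β-cells.

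Between β- and α-cells, 4 of 68 tested list genes were higher and 8 lower in β-cells, beside 8.66% and 16.3% of all genes. Of 10 genes of NAD synthesis and supply, NMRK1, the nicotinamide riboside kinase, was higher in β-cells (79.9 ± 20.8 against 39.6 ± 7.86 CPM, SD, n = 16, log2 fold change 1.02, SE 0.30, edgeR adjusted p = 0.00779) and 1 gene was lower. NAMPT was at 55.7 ± 20.7 CPM in β-cells and 54.8 ± 17.6 CPM in α-cells (log2 fold change −0.0091, SE 0.24, edgeR adjusted p = 0.983). Of 8 genes of NAD use, NUDT12, which hydrolyses NADH, was higher (31.7 ± 16.3 against 9.29 ± 3.42 CPM, log2 fold change 1.73), as was the tankyrase TNKS2 (0.81), and 0 were lower. Among 9 regulators of SIRT1, the lysine methyltransferase SETD7 was higher, at 31.5 ± 13.7 against 8.16 ± 3.01 CPM (log2 fold change 2.01, SE 0.36, edgeR adjusted p = 1.2e-05), and 1 gene was lower.

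Of 19 nuclear and cytosolic targets, PPARGC1A, the coactivator PGC-1α that SIRT1 deacetylates, was lower at 0.945 ± 0.713 against 16.4 ± 13.0 CPM (log2 fold change −4.10, SE 0.53, edgeR adjusted p = 1.5e-08), as was FOXA2 (−0.69). Of 12 mitochondrial targets 4 were lower, among them PPIF, the cyclophilin of the permeability transition pore (−1.49), and the adenine nucleotide carrier SLC25A5 (−0.59, 293 ± 82.4 against 441 ± 125 CPM). None of these targets was higher by edgeR, and the share of all genes called lower was 16.3%. Of the 10 zinc-dependent deacetylases 0 were called by edgeR, beside 25.0% of all genes, with 2 at an unadjusted p under 0.05, beside 34.5%. The medians of the lists ran from −0.44 (zinc-dependent deacetylases) to 0.44 (NAD use), beside −0.11 over all genes. Others, named after their values were seen, were AFMID and MYC, both lower in β-cells and under 10 CPM on average in both types, and ALDH2, also lower (−0.50).

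**Figure D5:**
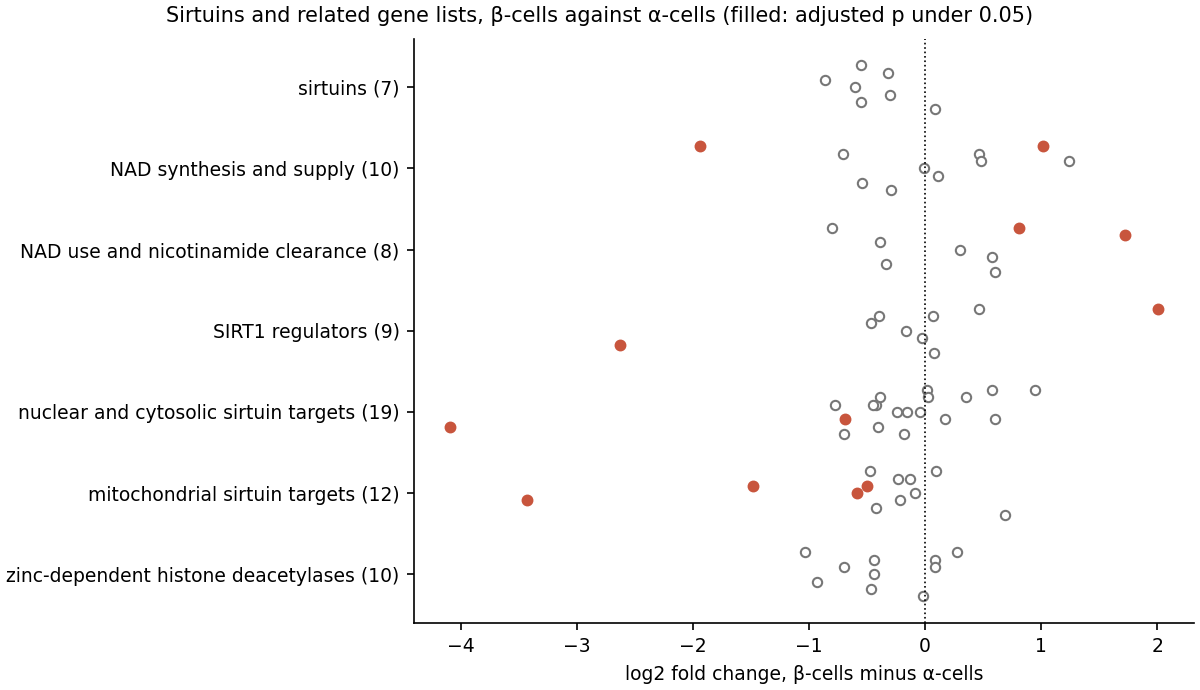
Log2 fold change of β-cells minus α-cells for the 7 sirtuins and for the tested genes of 6 related lists (number tested in parentheses), filled where the edgeR adjusted p over all 12899 genes is under 0.05. No sirtuin is filled, 8 list genes are filled below 0 and 4 above, and PPARGC1A lies farthest from 0 at −4.10.

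In the small types the same lists gave 1 gene higher and 13 lower for δ-cells minus α-cells, 0 and 2 for PP-cells minus α-cells, 3 and 13 for δ-cells minus β-cells, 3 and 7 for PP-cells minus β-cells, and 5 and 0 for PP-cells minus δ-cells, of 68 tested each. The shares of all genes higher and lower were 4.36% and 18.9%, 1.78% and 4.82%, 5.26% and 14.5%, 6.67% and 10.6%, and 6.51% and 3.83% in the same order. The medians of all genes in these contrasts were −0.47, −0.37, −0.35, −0.26 and 0.092. PPARGC1A was lower in δ-cells than in α-cells (−3.84, edgeR adjusted p = 0.000413) and higher in PP-cells than in β-cells (3.63, edgeR adjusted p = 0.000807) and δ-cells (3.38, edgeR adjusted p = 0.0163). Its level was 19.3 ± 23.4 CPM in PP-cells (SD, n = 6 monkeys, range 0 to 57.5 CPM). In δ-cells it was 0.953 ± 2.62 CPM (n = 11), so the SD was above the mean in both types. SETD7 was lower in δ-cells (−1.85) and PP-cells (−1.85) than in β-cells. NUDT12 was lower in δ-cells (−1.83) than in β-cells, and TNKS2 was lower in δ-cells (−1.05) and PP-cells (−2.01) than in β-cells.

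Other members of the lists were called in 1 or more of these contrasts. NMNAT2, an NAD-synthesising adenylyltransferase, was lower in δ-cells than in α-cells (−2.91) and β-cells (−2.37), with 15.3 ± 45.2 CPM over 11 monkeys in δ-cells, an SD well above the mean, against 23.5 ± 6.74 CPM in α-cells. IDH2, the mitochondrial isocitrate dehydrogenase that SIRT3 deacetylates, was lower in δ-cells than in α-cells (26.0 ± 24.6, n = 11, against 64.04 ± 14.6 CPM, n = 16, log2 fold change −1.57, edgeR adjusted p = 0.00208) and β-cells (−1.15). MLYCD, the malonyl-CoA decarboxylase that SIRT4 acts on, was lower in δ-cells (−1.69) and PP-cells (−3.15) than in β-cells. SLC25A5 was lower in PP-cells than in α-cells (−1.35) and β-cells (−0.76), and PPIF was lower in δ-cells than in α-cells (−2.11). RELA, a subunit of NF-κB, was lower in δ-cells than in α-cells (−1.84) and β-cells (−1.67), and UCP2, the mitochondrial uncoupling protein that SIRT1 represses, was higher (0.58 and 0.63). PARP1 was lower in PP-cells than in α-cells (−1.14), PARP2 in PP-cells than in β-cells (−1.86), and USP22 and FOXA2 were higher in PP-cells than in β-cells (0.70 and 1.01). HDAC11 was higher (1.72) and HDAC1 lower (−0.96) in δ-cells than in β-cells, and SARM1, an NAD-cleaving enzyme, was higher in δ-cells than in β-cells (1.71). BST1 and ALDH2 were higher in PP-cells than in δ-cells (3.08 and 0.91), BRCA1 was higher there (3.14) and lower in δ-cells than in β-cells (−3.51), and RPS19BP1, an activator of SIRT1, was lower in δ-cells than in α-cells (−0.93). For some of these genes the SD was also above the mean. In δ-cells (n = 11) SARM1 was at 26.4 ± 31.3, HDAC11 at 40.5 ± 42.6 and RELA at 10.5 ± 11.5 CPM. HDAC1 was at 49.5 ± 49.6, PPIF at 6.19 ± 10.4 and MLYCD at 8.75 ± 13.3 CPM in the same δ-cells. BRCA1 was at 1.34 ± 2.08 and BST1 at 1.69 ± 3.20 CPM there. In PP-cells (n = 6) BRCA1 was at 13.0 ± 20.9 CPM. List genes were not followed with a monkey left out.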

How the data were processed

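Reads had been aligned to Macaca_fascicularis_5.0 with TopHat2 2.0.12, per the submitters' processing notes. The authors counted unique alignments per gene, each UMI once, and deposited these raw counts for every cell. Strand-aware counting is not stated. Spike-ins (95 rows, 5.41% of UMIs) were left out of levels. Age and sex of a monkey were read from the deposited cell names and the animal list of the study. Counts were added up per monkey and type (at least 5 cells). The main test was that of edgeR (version 4.0.16, R 4.3.3; TMM, filterByExpr, quasi-likelihood, Benjamini-Hochberg, threshold 0.05), and monkeys were the replicates. The interaction of age and type, and the contrasts between types, had the monkey as a block. DESeq2 1.42.0 was the other tool. Shares used cells thinned to 10000 UMIs and exact permutation (Python 3.11.15, scipy 1.17.1), which left out 45 retained cells with fewer UMIs on macaque genes. Doublets were not called. Instead, fits were repeated without cells above the 95th percentile of UMIs and with the highest hormone at least 2 times the second. The edgeR script was tested on simulated data. The members and lists were chosen with earlier results of these data known. Of each list, up to 2 genes per direction are named among those called with at least 10 CPM in either type, and NAMPT was added. For each sirtuin of at least 10 CPM, the 3 most correlated genes are named. Of 96 cell barcodes, 93 were used in all 64 libraries, so cells were identified by library and barcode. No sequence of these genes was used here. By RefSeq annotation of another assembly, SIRT4 overlaps 2 snRNA genes and SIRT5 overlaps 1 protein-coding gene. None of these overlapping genes was found by symbol among the counted genes. Reads from them may therefore be included in the SIRT4 and SIRT5 counts, which was not tested. A single list gene is counted but its values are not reported here.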

Additional observations from a re-analysis of the deposited data

Results flagged for a closer look

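Values were looked at in 49 groups of 4 to 8 monkeys of an age, and in 13 of them 1 monkey lay farther from the others than Dixon's 95% limit. That limit gives about 1 in 20 for normally distributed values, which these sparse sums are not, so the 13 cannot be read as an excess. For SIRT5 in young δ-cells, old δ-cells and old PP-cells every other monkey was at 0, where any single non-zero value is flagged. In α-cells, SIRT4 in old female 2 stood at 29.1 CPM, where the next old monkey had 9.23 CPM, and 1 cell held 256 of its 451 UMIs (56.8%), while the other 250 cells gave 12.7 CPM. SIRT7 in young male 3 stood at 19.2 CPM with the next at 11.04 CPM, from 342 UMIs in 41 of 280 cells. In β-cells, SIRT7 in old female 3 was at 35.0 CPM (next 18.6 CPM), from 98 UMIs in 10 of 28 cells, and SIRT6 in old male 4 was lowest at 0.605 CPM (next 5.30 CPM), with 1 UMI in 22 cells.

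The other 9 were in δ- and PP-cell sums of 6 to 33 cells. In δ-cells they were SIRT1 in old female 2 at 62.7 CPM (27 of 35 UMIs in 1 cell), SIRT3 in old female 1 at 82.1 CPM (29 of 58 UMIs in 1 cell), SIRT5 in young male 3 at 6.40 CPM (3 UMIs in 1 cell) and in old male 4 at 8.70 CPM (6 UMIs), SIRT6 in young male 1 at 43.6 CPM (8 of 9 UMIs in 1 cell), and SIRT7 in young male 3 at 156 CPM (44 of 73 UMIs in 1 cell). In PP-cells they were SIRT3 in old female 2 at 36.0 CPM (22 of 54 UMIs in 1 cell), SIRT4 in the same monkey at 18.01 CPM (10 of 27 UMIs in 1 cell), and SIRT5 in old female 1 at 22.6 CPM (11 UMIs, all in 1 cell).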

How the results depend on the processing

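Counts of called sirtuins were unchanged in 251 of 255 pairs of a result and a left-out monkey. With other settings, permutation tests included, they were unchanged in 127 of 131 pairs of a result and a setting. A left-out monkey with fewer than 5 cells of a type was not in that type's age fit, so the fit stayed the same. Some settings tested fewer sirtuins, which also keeps a count at 0. Thinned β-cells had 2 of 7 tested by age. The count rose from 0 to 1 for β-cells minus α-cells with at least 20 cells per monkey (5723 genes called against 3222) and with only α- and β-cell sums (5698), and for δ-cells minus β-cells thinned or with no monkey block. It was 0 to 1 with a monkey left out for δ-cells minus α-cells and δ-cells minus β-cells. The cause was not tested.

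Age log2 fold changes turned sign in α-cells for SIRT1 (−0.021 thinned, −0.037 with the replicate block, −0.10 as mean log2(CPM/10 + 1)), SIRT2 (−0.083 thinned), SIRT4 (0.0016 with no filter on low counts, 0.033 with over 2000 genes and over 20000 UMIs, 0.11 with no sex) and SIRT6 (−0.00052 with the highest hormone at least 2 times the second, −0.0047 as mean log2). In β-cells SIRT2 turned (−0.17 with that hormone rule, −0.027 with at least 20 cells), and in PP-cells SIRT1 (−0.18 as mean log2). SIRT7 in β-cells minus α-cells turned thinned (−0.15), with that hormone rule (−0.021), with at least 20 cells (−0.12) and with only α- and β-cell sums (−0.050). With a monkey left out, ranges crossed 0 in α-cells for SIRT1 (−0.089 to 0.12), SIRT2 (−0.039 to 0.14), SIRT4 (−0.46 to 0.17), SIRT5 (−0.26 to 0.013) and SIRT6 (−0.073 to 0.19), in β-cells for SIRT2 (−0.027 to 0.28) and SIRT6 (−0.032 to 0.32), and in δ-cells for SIRT1 (−2.47 to 0.25) and SIRT2 (−1.21 to 0.084). None of these values was called.

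The replicate numbers were not taken to pair the monkeys in the main fits. Deviations of same-numbered monkeys had correlations of −0.035 to 0.133 in α-cells and −0.080 to 0.069 in β-cells. Those of differently numbered monkeys were not computed, so these values cannot tell whether the numbers pair the monkeys. The replicate block gave 0 called sirtuins in α-, β- and δ-cells, with 0, 6 and 0 genes called, and could not be fitted in PP-cells.

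Genes called by age were 5 in β-cells, 39 by DESeq2, 21 with no filter on low counts, and 3 either without cells above the 95th percentile or with at least 20 cells. They were 0 in α-cells and 24 by DESeq2, 0 in δ-cells and 3 by DESeq2 or with no filter, and 0 in PP-cells, 1 by DESeq2 or with no sex and 9 with no filter. For sex DESeq2 called 26 genes in α-cells and 12 in β-cells, where 23 came with no filter and 2 with at least 20 cells. For the interaction of age and type DESeq2 called 5 and thinning 6, and for that of sex and age in β-cells DESeq2 and no filter called 1 each. Between types thinning also lowered the genes tested from 12899 to 9048, and the calls for δ-cells minus α-cells went from 2999 to 1988. PP-cells minus α-cells went from 852 to 1348 by DESeq2 and 521 thinned, and PP-cells minus δ-cells from 1334 to 2099 by DESeq2, 720 thinned and 2097 with no block. At least 20 cells per monkey left no value for δ- and PP-cells.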
